A study of Homo sapiens with 6 samples.

Results

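Genes for making cholesterol and fatty acids were followed in A549, an established line of human lung adenocarcinoma cells, after knockdown of CBX8, a chromobox subunit of the Polycomb repressive complex PRC1. The set holds 31 genes of the 28452 in the deposited table, chosen from the textbook pathways with earlier results of these data known. The estimated read counts of all RefSeq transcripts of a gene were added up. By role, 7 belong to the mevalonate arm, 11 to the sterol arm, 6 to sterol sensing and transport, and 7 to the fatty acid arm. The cells had been infected with lentiviruses and kept as stable lines, in 3 groups of 2 libraries. Cells of shCBX8-2 and of shCBX8-1 carried a short hairpin RNA against CBX8, and control cells carried a control hairpin. Whether the lines were clones, what the first number in the knockdown titles stands for, and whether a group's libraries are separate cultures is not given in the labels. A p-value here weighs a difference between groups against the spread within groups, estimated from all 6 libraries together, and that spread may be technical. The spread of each group thus enters the tests of the others. By its title, the study concerns repression of CDKN2C and SCEL by CBX8. How the lipid synthesis genes stood in the same libraries is described here.

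Cells build cholesterol and fatty acids from the same precursor, acetyl-CoA, which ATP citrate lyase (ACLY) makes in the cytosol from citrate. The mevalonate arm turns acetyl-CoA into isoprenoid units and farnesyl diphosphate, and the sterol arm joins these into squalene, closes the rings to lanosterol and trims lanosterol to cholesterol. The fatty acid arm makes malonyl-CoA and palmitate, which elongases and desaturases lengthen and unsaturate. SREBF1 and SREBF2 encode the transcription factors SREBP-1 and SREBP-2, which are held in the endoplasmic reticulum by SCAP and the INSIG proteins while sterols are plentiful. When sterols run low, the factors move to the Golgi, are cut and enter the nucleus, where they bind promoters together with NF-Y and Sp1.

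Libraries held 64197784 to 67169537 estimated counts, and levels are given in CPM, counts scaled to a common library total by the trimmed mean of M values. CBX8 (chr17:79792132-79797077) stood at 17.8 and 13.8 CPM in shCBX8-2, 7.79 and 7.70 CPM in shCBX8-1, and 24.6 and 26.3 CPM in control. It fell in both knockdown groups, to 61.9% of control in shCBX8-2 (log2 fold change -0.69 ± 0.15 SE, adjusted p = 0.0297) and to 30.5% in shCBX8-1 (-1.72 ± 0.16, adjusted p = 0.00708), and it was higher in shCBX8-2 than in shCBX8-1 (1.02 ± 0.15, adjusted p = 0.0115). CDKN2C and SCEL rose in both groups, with means of 44.2, 38.0 and 20.9 CPM for CDKN2C and 24.8, 17.7 and 7.35 CPM for SCEL in shCBX8-2, shCBX8-1 and control. These adjusted p, like those that follow, come from the quasi-likelihood test of edgeR with Benjamini-Hochberg adjustment over the 17115 genes that passed a filter on low counts, with a threshold of 0.05. Of 10 A549 and lung epithelial markers 9 reached 1 CPM, and their summed level (marker levels are scaled to the library total alone) was 35900 and 33480 CPM in shCBX8-2, 30430 and 30550 CPM in shCBX8-1, and 34320 and 33530 CPM in control. Of these 10, 4 rose and 1 fell in shCBX8-2 and 2 fell in shCBX8-1. The one that fell in shCBX8-2 was ALDH1A1, at 1743 and 2109 CPM in shCBX8-2, 4062 and 4202 CPM in shCBX8-1, and 3607 and 3639 CPM in control. Summed markers of other cell types were low, at 13.0 to 23.8 CPM for leukocytes (6 genes), 1.94 to 5.40 CPM for endothelium (5), 0.871 to 4.28 CPM for adipocytes (5) and 8.99 to 15.8 CPM for hepatocytes (6). Those of fibroblasts (6 genes, DCN at 0 in every library) summed to 5.26 and 4.88 CPM in shCBX8-2, 8.60 and 9.48 CPM in shCBX8-1, and 12.2 and 14.4 CPM in control, nearly all of it COL1A1, which fell in shCBX8-2. Of the other lists, CORO1A (leukocytes) rose in shCBX8-2 (log2 fold change 0.94, adjusted p = 0.00949) and in shCBX8-1 (1.35, adjusted p = 0.011). FABP4 (adipocytes) rose in shCBX8-1 (2.77, adjusted p = 0.0467), to 2.87 and 1.40 CPM. The part of these marker differences in the results that follow was not tested. The median gene differed by 0.240 log2 between replicates in shCBX8-2, by 0.128 in shCBX8-1 and by 0.129 in control.

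Lipid synthesis genes were lower in shCBX8-2 and mixed in shCBX8-1. In shCBX8-2, 11 of 31 genes (35.5%) fell and 0 rose, against a background of 6.64% of all genes tested that fell and 6.03% that rose. The genes that fell were MVD, IDI1, FDFT1, SQLE, TM7SF2, MSMO1, HSD17B7, SC5D, DHCR7, SCD and FADS2. In shCBX8-1, SCD fell and ACLY rose, against backgrounds of 1.13% and 1.34%, so 1 gene (3.23%) moved in each direction. For the mean of both knockdown groups, SCD and TM7SF2 fell (6.45%) and ACLY rose (3.23%), against backgrounds of 3.48% and 3.31%. The median log2 fold change of the 31 genes was -0.31 in shCBX8-2, 0.04 in shCBX8-1 and -0.09 for the mean of the groups. Over all genes tested it was -0.04, -0.01 and -0.04. Both knockdown groups were compared with the same control libraries.

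These counts leaned on single libraries. The 11 genes called in shCBX8-2 became 1, SCD, without control replicate 1 and likewise without control replicate 2. Leaving out shCBX8-1 replicate 1 gave 5 and replicate 2 gave 4. Leaving out shCBX8-2 replicate 1 gave 17 and replicate 2 gave 20, of which 2 were higher. The genes called in shCBX8-1 numbered 0 without any 1 of the control or shCBX8-1 libraries and 7 without either shCBX8-2 library, and the genes called for the mean ranged from 0 to 11. Over all genes, those called in shCBX8-2 ranged from 139 to 5515 in these fits. No called fold change turned its sign in any of them, and 0 of the 31 genes passed with a minimum of 2-fold added. Calls over all genes tested fell and rose in the same fits, so these changes in count were not limited to the set.

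The individual libraries showed the same contrast of the groups. In shCBX8-2, 23 genes (74.2%) had both libraries below both control libraries and 4 genes (12.9%), PMVK, EBP, SREBF1 and SCAP, had both above. Over all genes tested, 31.4% were separated downward and 26.0% upward in this way. In shCBX8-1, 13 genes (41.9%) were separated upward and 8 (25.8%) downward, beside 28.4% and 29.0% of all genes. Added together, the 31 genes held 5101 and 4948 CPM in shCBX8-2, 5983 and 6090 CPM in shCBX8-1, and 6036 and 6167 CPM in control. The shCBX8-2 mean was 82.4% of control and the shCBX8-1 mean 98.9%, and without SCD, the most abundant of the genes in control, these shares were 88.6% and 109%. By role, the summed level in shCBX8-2 was 84.9% of control in the mevalonate arm, 78.9% in the sterol arm, 104% in sterol sensing and transport and 77.3% in the fatty acid arm. In shCBX8-1 it was 112%, 104%, 94.8% and 96.5% of control in the same order of roles. These sums lean on abundant genes, such as SCD in the fatty acid arm and SREBF1 in sensing and transport (means of 1430 and 514 CPM in control). The median log2 fold change of the genes, by role in the same order, was -0.20, -0.39, -0.05 and -0.19 in shCBX8-2. In shCBX8-1 the medians were 0.17, -0.01, -0.02 and 0.02. As these are bulk libraries, fewer cells making an RNA and less of it per cell cannot be told apart.

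**Figure D1:**
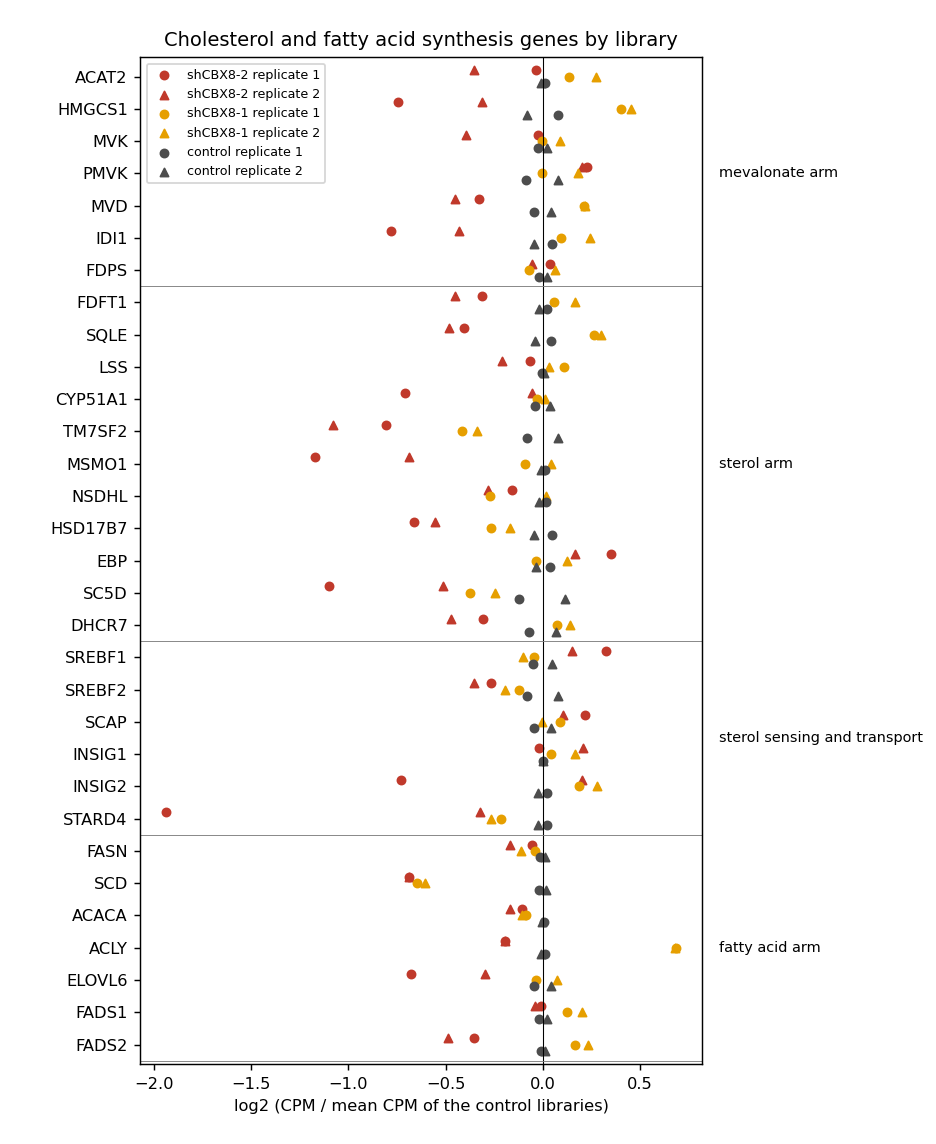
Each library of the 31 genes by role, as log2 of its CPM over the mean CPM of the control libraries (horizontal axis). Points are shCBX8-2 in red, shCBX8-1 in orange and control in grey, with circles for replicate 1 and triangles for replicate 2. Both shCBX8-2 points lie left of both control points for 23 genes, and STARD4 has its shCBX8-2 replicates far apart.

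Promoter sequences are given for 4 genes whose levels carried the pattern: SCD, which fell in both knockdown groups, ACLY, which rose in shCBX8-1, and TM7SF2 and MSMO1, which fell in shCBX8-2. That of SREBF2, which passed in no comparison, is given for its match to the sterol regulatory element. Each is the 250 bases before the start of a RefSeq transcript in GRCh38.p14, read along the gene's strand and ending beside the start. Capitals mark the CCAAT box (CCAAT, the letters bound by NF-Y), the GC box (GGGCGG, bound by Sp1) and, in SREBF2, the core of the sterol regulatory element (TCACNCCAC, bound by SREBPs), on either strand.
SCD, chr10:100346983-100347232, plus strand: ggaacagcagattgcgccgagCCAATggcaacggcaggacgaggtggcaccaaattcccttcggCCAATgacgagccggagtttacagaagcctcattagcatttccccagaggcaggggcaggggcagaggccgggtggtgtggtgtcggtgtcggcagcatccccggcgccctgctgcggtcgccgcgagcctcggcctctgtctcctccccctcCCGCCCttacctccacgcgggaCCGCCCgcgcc
ACLY, chr17:41919023-41919272, minus strand: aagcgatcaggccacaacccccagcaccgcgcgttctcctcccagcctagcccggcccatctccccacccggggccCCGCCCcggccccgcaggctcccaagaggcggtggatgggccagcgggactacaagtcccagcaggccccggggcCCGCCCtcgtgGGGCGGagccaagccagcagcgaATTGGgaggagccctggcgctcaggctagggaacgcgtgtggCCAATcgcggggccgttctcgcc
TM7SF2, chr11:65111622-65111871, plus strand: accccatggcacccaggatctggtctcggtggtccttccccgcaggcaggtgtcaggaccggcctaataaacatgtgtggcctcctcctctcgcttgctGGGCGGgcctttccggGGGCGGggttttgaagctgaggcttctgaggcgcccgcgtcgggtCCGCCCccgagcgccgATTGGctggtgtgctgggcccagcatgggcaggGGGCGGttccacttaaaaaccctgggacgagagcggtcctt
MSMO1, chr4:165327419-165327668, plus strand: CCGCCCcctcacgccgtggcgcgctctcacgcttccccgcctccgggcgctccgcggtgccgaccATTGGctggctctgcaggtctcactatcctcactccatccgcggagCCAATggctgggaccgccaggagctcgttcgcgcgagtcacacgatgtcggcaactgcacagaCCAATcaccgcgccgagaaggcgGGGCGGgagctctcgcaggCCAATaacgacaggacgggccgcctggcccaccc
SREBF2, chr22:41832855-41833104, plus strand: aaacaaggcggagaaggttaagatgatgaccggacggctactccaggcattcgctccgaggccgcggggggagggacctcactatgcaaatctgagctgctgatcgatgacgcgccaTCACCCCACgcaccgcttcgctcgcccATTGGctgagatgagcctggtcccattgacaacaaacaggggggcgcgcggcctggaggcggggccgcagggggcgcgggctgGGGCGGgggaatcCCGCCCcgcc
The SCD window holds 2 CCAAT boxes and 2 GC boxes, that of ACLY 2 and 3, that of TM7SF2 1 and 4, that of MSMO1 4 and 2, and that of SREBF2 1 and 2. A match is a run of letters and was not tested as a binding site.

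Windows were at hand for 27 of the 31 genes, and ACAT2, FASN, FDFT1 and SQLE had none in the table used. A GC box stood in at least 1 window of 26 genes (96.3%), against 70.4% of the 13051 genes tested with a window. A CCAAT box stood in 19 genes (70.4%), against 40.1% of those tested, and 18 genes (66.7%) held both, against 29.1%. The sterol regulatory element core was found in SREBF2 alone (3.70%), against 1.13% of genes tested. E-box letters (CANNTG), which SREBPs can also bind, stood in 15 genes (55.6%), against 62.0% of genes tested. Over all 35116 windows of the table, counted per gene, the shares were 46.2% for the GC box, 37.0% for the CCAAT box, 1.09% for the sterol regulatory element core and 66.7% for the E-box. Genes that fell in shCBX8-2 and those that did not were not compared for these letters.

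In the mevalonate arm, 2 of 7 genes (28.6%) fell in shCBX8-2, beside 6.64% of all genes tested. In shCBX8-1 0 of 7 passed, where 1.13% of all genes tested fell and 1.34% rose. An edgeR fit of only the libraries compared, which called more genes in all, had HMGCS1 and MVD pass as higher in shCBX8-1. IDI1 (chr10:1039152-1056704), the isomerase that activates the isoprenoid unit, stood at 56.2 and 71.5 CPM in shCBX8-2, 103 and 114 CPM in shCBX8-1, and 99.6 and 93.4 CPM in control. Both shCBX8-2 libraries lay below every other library, and IDI1 fell by 0.60 ± 0.13 on the log2 scale (SE, adjusted p = 0.0277). In shCBX8-1 its log2 fold change was 0.17 ± 0.13 (adjusted p = 0.565). MVD (chr16:88651940-88663091), the mevalonate diphosphate decarboxylase, stood at 39.4 and 36.2 CPM in shCBX8-2, 57.4 and 57.7 CPM in shCBX8-1, and 48.1 and 51.0 CPM in control. Its groups did not overlap, with shCBX8-2 lowest and shCBX8-1 highest. MVD fell by 0.39 ± 0.09 in shCBX8-2 (adjusted p = 0.0361), while its shCBX8-1 value of 0.22 ± 0.09 did not pass (adjusted p = 0.286).

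HMGCS1 (chr5:43287470-43313412), the synthase that makes HMG-CoA, stood at 64.9 and 87.4 CPM in shCBX8-2, 144 and 149 CPM in shCBX8-1, and 115 and 103 CPM in control. The groups were again apart, but neither knockdown group passed against control. The log2 fold change was -0.51 ± 0.14 in shCBX8-2 (adjusted p = 0.0609) and 0.43 ± 0.14 in shCBX8-1 (adjusted p = 0.188). Without shCBX8-2 replicate 1 the shCBX8-2 value was -0.30, and without replicate 2 it was -0.74. Under the DESeq2 Wald test, which called more genes in all, both groups passed (adjusted p = 0.0104 in shCBX8-2 and 0.0461 in shCBX8-1). In an edgeR fit of only the libraries compared, shCBX8-1 passed (adjusted p = 0.00509) and shCBX8-2 did not. ACAT2, the thiolase of the first step, averaged 60.2 ± 9.27 CPM in shCBX8-2, 78.9 ± 5.50 CPM in shCBX8-1 and 68.4 ± 0.764 CPM in control (SD, n = 2 each). The mevalonate kinases, MVK and PMVK, stood at 87.2% and 116% of control in shCBX8-2 and at 103% and 106.5% in shCBX8-1. FDPS, the farnesyl diphosphate synthase, was at 99.3% of control in shCBX8-2 and 99.8% in shCBX8-1. ACAT2, MVK, PMVK and FDPS passed in none of the 4 comparisons. MVK stood at 47.5 and 36.8 CPM in shCBX8-2, 48.3 and 51.4 CPM in shCBX8-1, and 47.6 and 49.1 CPM in control, so shCBX8-2 replicate 2 stood below the rest. Without shCBX8-2 replicate 1 the log2 fold change in shCBX8-2 was -0.38 for MVK, against -0.20 with it, and -0.34 for ACAT2, against -0.19 (adjusted p = 0.014 and 0.0284), and without replicate 2 it was -0.02 for MVK and -0.04 for ACAT2.

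In the sterol arm, 7 of 11 genes (63.6%) fell in shCBX8-2, beside 6.64% of all genes tested. In shCBX8-1 0 of 11 passed, where 1.13% of all genes tested fell and 1.34% rose. With only the libraries compared in the edgeR fit, SQLE passed as higher and TM7SF2 as lower in shCBX8-1. SQLE (chr8:124998505-125022283), the squalene epoxidase, stood at 93.9 and 89.1 CPM in shCBX8-2, 149 and 153 CPM in shCBX8-1, and 128 and 121 CPM in control. Its 3 groups did not overlap. SQLE fell in shCBX8-2 (-0.45 ± 0.07, adjusted p = 0.0133), and its value in shCBX8-1 was 0.28 ± 0.07 (adjusted p = 0.117). FDFT1 (chr8:11795582-11839298), the squalene synthase one step earlier, stood at 144 and 131 CPM in shCBX8-2, 186 and 201 CPM in shCBX8-1, and 182 and 177 CPM in control. FDFT1 was lower in both shCBX8-2 libraries than in any other library, and it fell by 0.38 ± 0.08 in shCBX8-2 (adjusted p = 0.028). LSS, the lanosterol synthase that closes the rings, was at 91.0% of control in shCBX8-2 and at 105% in shCBX8-1 and did not pass in either.

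Among the enzymes that trim lanosterol, TM7SF2 and MSMO1 had the lowest shares of control in shCBX8-2. TM7SF2 (chr11:65111872-65116230), a sterol C14 reductase, stood at 13.3 and 11.0 CPM in shCBX8-2, 17.5 and 18.4 CPM in shCBX8-1, and 22.0 and 24.6 CPM in control. Every knockdown library lay below both control libraries, and shCBX8-2 below shCBX8-1. TM7SF2 fell to 52.3% of control in shCBX8-2 (-0.94 ± 0.14, adjusted p = 0.0093), and its share of 77.0% in shCBX8-1 did not pass (-0.38 ± 0.14, adjusted p = 0.233). TM7SF2 passed in shCBX8-1 in an edgeR fit of only the libraries compared (-0.38, adjusted p = 0.0398). For the mean of the groups it fell by 0.66 ± 0.12 (adjusted p = 0.0258), a call lost without any 1 of the control or shCBX8-1 libraries (adjusted p = 0.11 to 0.248) and with the 4 knockdown libraries taken as 1 group (adjusted p = 0.294). MSMO1 (chr4:165327669-165343164), the C4 methylsterol oxidase, stood at 31.3 and 43.7 CPM in shCBX8-2, 66.0 and 72.6 CPM in shCBX8-1, and 71.0 and 69.9 CPM in control. Here shCBX8-1 and control overlapped and shCBX8-2 stood below both, at 53.2% of control (-0.91 ± 0.16, adjusted p = 0.0142).

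SC5D (chr11:121292771-121313410), the sterol C5 desaturase, stood at 22.9 and 34.4 CPM in shCBX8-2, 37.9 and 41.4 CPM in shCBX8-1, and 45.1 and 53.0 CPM in control. The groups did not overlap, with shCBX8-2 lowest and control highest. SC5D fell in shCBX8-2 (-0.78 ± 0.19, adjusted p = 0.0458), but the value was -0.50 without shCBX8-2 replicate 1, and the call was lost without a filter on low counts (adjusted p = 0.082). HSD17B7 (chr1:162790702-162812823), a 3-ketosteroid reductase of the pathway, stood at 8.53 and 9.20 CPM in shCBX8-2, 11.3 and 12.0 CPM in shCBX8-1, and 14.0 and 13.1 CPM in control. Its groups were ordered in the same way, and it fell in shCBX8-2 (-0.61 ± 0.13, adjusted p = 0.0271). A near copy, the pseudogene HSD17B7P2, makes its reads uncertain. DHCR7 (chr11:71427287-71449043), the reductase of the last step, stood at 163 and 146 CPM in shCBX8-2, 213 and 223 CPM in shCBX8-1, and 192 and 212 CPM in control. Its shCBX8-2 libraries lay below all others, and DHCR7 fell there (-0.39 ± 0.09, adjusted p = 0.0345), and in shCBX8-1 its value was 0.11 ± 0.09 (adjusted p = 0.624). The other trimming enzymes, CYP51A1, NSDHL and EBP, stood at 78.7%, 86.0% and 120% of control in shCBX8-2 and at 99.4%, 92.0% and 103% in shCBX8-1, and passed in none of the comparisons. CYP51A1 stood at 50.8 and 79.7 CPM in shCBX8-2, 81.1 and 83.5 CPM in shCBX8-1, and 80.7 and 85.0 CPM in control, so its lower mean rested on shCBX8-2 replicate 1. Its log2 fold change of -0.35 in shCBX8-2 was -0.04 without replicate 1 (adjusted p = 0.769) and -0.71 without replicate 2 (adjusted p = 0.000366).

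**Figure D2:**
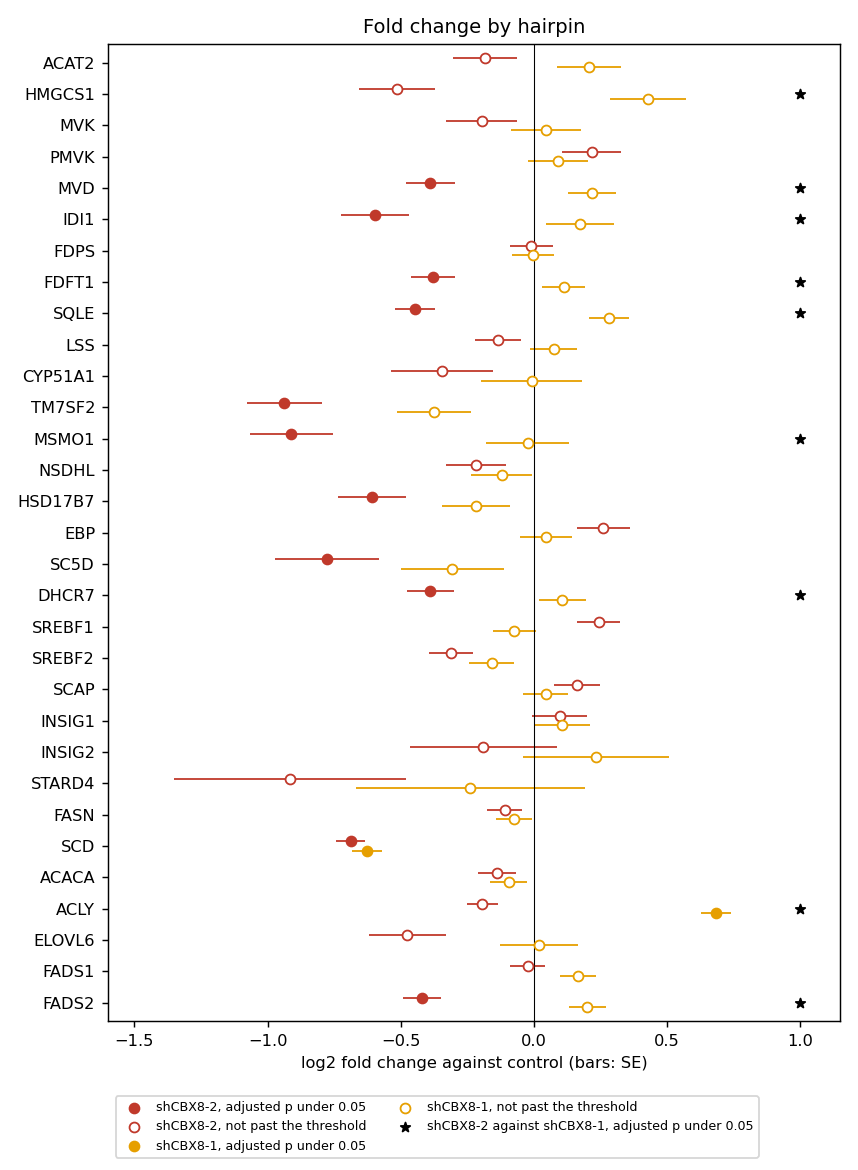
Log2 fold change against control (horizontal axis, bars are SE) of the 31 genes in shCBX8-2 (red) and shCBX8-1 (orange). Filled points had an adjusted p under 0.05 and stars mark genes that differed between shCBX8-2 and shCBX8-1. Filled red points number 11, all left of 0, filled orange points are SCD and ACLY, and there are 9 stars.

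Of the 6 genes for sterol sensing and transport, 0 passed in any comparison. SREBF1 (chr17:17811334-17836986) stood at 644 and 571 CPM in shCBX8-2, 497 and 479 CPM in shCBX8-1, and 496 and 531 CPM in control. Both shCBX8-2 libraries were above all others, at 118% of control (0.24 ± 0.08, adjusted p = 0.0972). SREBF2 (chr22:41833105-41907305) stood at 184 and 174 CPM in shCBX8-2, 204 and 194 CPM in shCBX8-1, and 210 and 234 CPM in control. All 4 knockdown libraries were below both control libraries, with log2 fold changes of -0.31 ± 0.08 in shCBX8-2 (adjusted p = 0.055) and -0.16 ± 0.08 in shCBX8-1 (adjusted p = 0.393). Both SREBF genes passed in shCBX8-2 under the DESeq2 Wald test (adjusted p = 0.0336 for SREBF1 and 0.0152 for SREBF2). That test called 3560 genes in all there, against 2169 in the main fit. In edgeR, SREBF2 also passed with no filter on low counts (adjusted p = 0.0494) and without repeated accessions (adjusted p = 0.0405). Both genes passed once libraries were adjusted for GC content, an alternative chosen after seeing the data (adjusted p = 0.00896 for SREBF1 and 0.0102 for SREBF2).

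SCAP, the sterol sensor that escorts SREBPs, was at 112% of control in shCBX8-2 and 103% in shCBX8-1, and INSIG1, its retention partner, at 107% and 108%. INSIG2, the second retention factor, stood at 7.13 and 13.6 CPM in shCBX8-2, 13.4 and 14.3 CPM in shCBX8-1, and 12.0 and 11.6 CPM in control. STARD4, a cytosolic sterol carrier, stood at 14.3 and 43.7 CPM in shCBX8-2, 47.2 and 45.5 CPM in shCBX8-1, and 55.6 and 53.8 CPM in control. The shCBX8-2 libraries disagreed for both genes. INSIG2 had a log2 fold change of -0.19 in shCBX8-2 (adjusted p = 0.696), which was 0.22 without replicate 1 and -0.73 without replicate 2 (adjusted p = 0.00656). STARD4 had a log2 fold change of -0.92 ± 0.43 in shCBX8-2 (adjusted p = 0.217), which was -0.31 without replicate 1 (adjusted p = 0.028) and -1.94 without replicate 2 (adjusted p = 9.56e-06).

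In the fatty acid arm, SCD fell in both knockdown groups, ACLY rose in shCBX8-1 and FADS2 fell in shCBX8-2, among 7 genes. SCD (chr10:100347233-100364826), the stearoyl-CoA desaturase that makes monounsaturated fatty acids, stood at 889 and 887 CPM in shCBX8-2, 914 and 939 CPM in shCBX8-1, and 1412 and 1449 CPM in control. All 4 knockdown libraries were far below both control libraries and close to each other. SCD fell to 62.1% of control in shCBX8-2 (-0.69 ± 0.05, adjusted p = 0.00183) and to 64.8% in shCBX8-1 (-0.63 ± 0.05, adjusted p = 0.00667). The difference between the knockdown groups was -0.06 ± 0.05 (adjusted p = 0.532), on the log2 scale. For the mean of the groups SCD fell by 0.66 ± 0.05 (adjusted p = 0.00289), and this call was lost without control replicate 1 (adjusted p = 0.0759) or control replicate 2 (adjusted p = 0.0852). In shCBX8-2 SCD passed in every alternative but the 2-fold minimum, with an adjusted p of at most 0.0406, and in shCBX8-1 it missed the threshold without either control or either shCBX8-1 library (adjusted p = 0.0967 to 0.138). Per length, at 267 CPM per kilobase of transcript, SCD had the highest control level of the 30 genes with a transcript length in the annotation used, followed by FADS2 (148) and FDPS (129).

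ACLY (chr17:41866917-41930545) stood at 453 and 453 CPM in shCBX8-2, 834 and 829 CPM in shCBX8-1, and 522 and 514 CPM in control. The shCBX8-1 libraries were far above all others and the shCBX8-2 libraries below control. ACLY rose to 161% of control in shCBX8-1 (0.68 ± 0.06, adjusted p = 0.00556), and in shCBX8-2 its value of -0.19 ± 0.06 did not pass (adjusted p = 0.0711). ACLY did pass as lower in shCBX8-2 under the DESeq2 Wald test (adjusted p = 0.0245). In edgeR it passed there with no filter on low counts (adjusted p = 0.0479) and without repeated accessions (adjusted p = 0.0398), but not with only the libraries compared. The rise for the mean of the groups (0.24 ± 0.05, adjusted p = 0.0357) averages values of opposite sign, and with the 4 knockdown libraries taken as 1 group it had an adjusted p of 0.725. The mean was also lost without any 1 of the control or shCBX8-1 libraries (adjusted p = 0.121 to 0.265), and the shCBX8-1 call in the same 4 fits (adjusted p = 0.0967 to 0.108).

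FADS2 (chr11:61816203-61867354), the delta-6 desaturase of polyunsaturated fatty acids, stood at 415 and 378 CPM in shCBX8-2, 595 and 623 CPM in shCBX8-1, and 526 and 534 CPM in control. Its groups did not overlap, with shCBX8-1 highest. FADS2 fell in shCBX8-2 (-0.42 ± 0.07, adjusted p = 0.0134), and its value in shCBX8-1 was 0.20 ± 0.07 (adjusted p = 0.214). FADS1, the delta-5 desaturase next to it on chromosome 11, was at 98.3% of control in shCBX8-2 and 112% in shCBX8-1 and passed in neither. The annotated spans of FADS1 and FADS2 overlap by 801 bases, and whether the counting used strand is not given in the sources used here, so reads in the overlap are uncertain. FASN, the fatty acid synthase, and ACACA, the acetyl-CoA carboxylase that feeds it, stood at 92.6% and 90.8% of control in shCBX8-2 and at 94.9% and 93.6% in shCBX8-1. ELOVL6, an elongase of palmitate, was at 71.9% of control in shCBX8-2 (-0.48 ± 0.15, adjusted p = 0.0802) and at 101% in shCBX8-1. Its shCBX8-2 value was -0.28 without replicate 1 and -0.68 without replicate 2, and it passed under the DESeq2 Wald test (adjusted p = 0.0292). In the main fit, FASN, ACACA, ELOVL6 and FADS1 passed in none of the 4 comparisons.

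**Figure D3:**
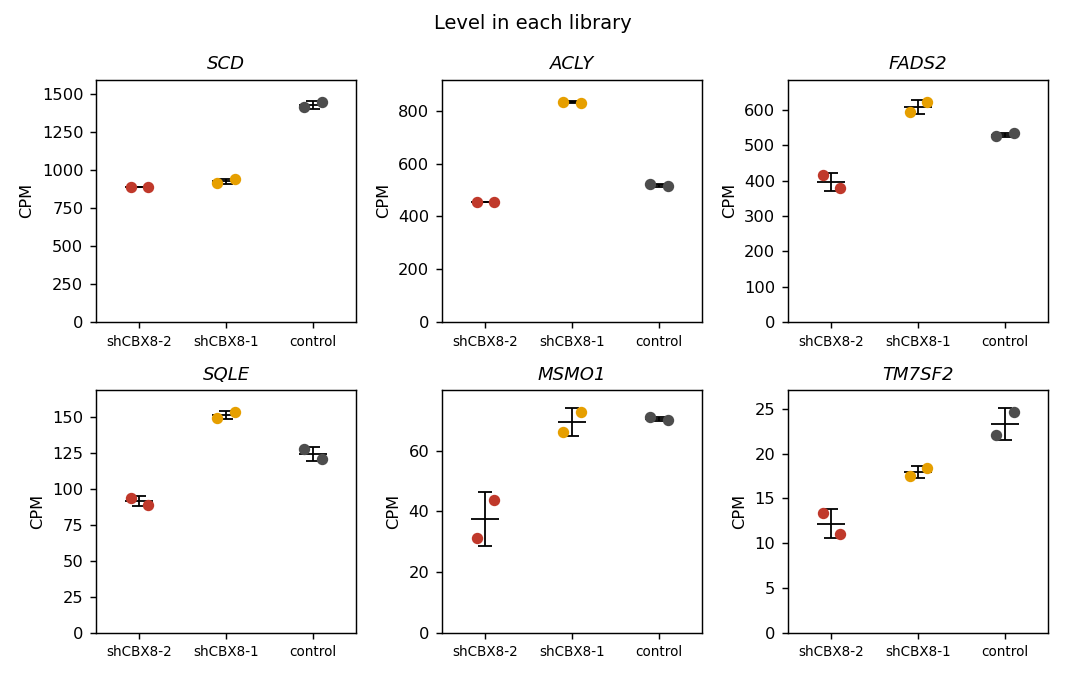
CPM (vertical axis, from 0) of SCD, ACLY, FADS2, SQLE, MSMO1 and TM7SF2 in shCBX8-2, shCBX8-1 and control. Points are libraries, and bars are the mean and SD of 2 libraries. SCD is low in both knockdown groups, at 887 to 939 CPM against 1412 and 1449 CPM in control, whereas ACLY is high in shCBX8-1 alone.

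The knockdown groups differed from each other directly. Between shCBX8-2 and shCBX8-1, 9 of 31 genes (29.0%) were lower in shCBX8-2 and 0 were higher, against 5.77% and 4.05% of all genes tested. They were HMGCS1, MVD and IDI1 of the mevalonate arm, FDFT1, SQLE, MSMO1 and DHCR7 of the sterol arm, and ACLY and FADS2 of the fatty acid arm. The log2 difference was -0.94 ± 0.14 for HMGCS1 (adjusted p = 0.0119), -0.89 ± 0.16 for MSMO1 (adjusted p = 0.0195) and -0.88 ± 0.06 for ACLY (adjusted p = 0.000899). It was -0.73 ± 0.08 for SQLE (adjusted p = 0.00364) and -0.62 ± 0.07 for FADS2 (adjusted p = 0.0052). The median difference of the 31 genes was -0.39, beside -0.01 over all genes tested. ACLY passed in every alternative but the 2-fold minimum (adjusted p at most 0.0326), and the count of 9 became 3 or 1 on leaving out shCBX8-1 replicate 1 or 2, and 17 on leaving out shCBX8-2 replicate 2. The count over all genes tested fell and rose in the same fits. TM7SF2 missed the threshold (-0.56 ± 0.14, adjusted p = 0.0533), as did SREBF1, which was higher in shCBX8-2 (0.32 ± 0.08, adjusted p = 0.0548).

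Below the gene level, SREBF1 showed a different estimated transcript makeup in shCBX8-1. Its leading RefSeq transcript of 3 carried 73.6 and 67.6% of the gene's counts in shCBX8-2, 50.9 and 48.6% in shCBX8-1, and 77.6 and 70.0% in control. The least abundant of the 3 carried 7.30 and 15.3% in shCBX8-2, 21.4 and 21.7% in shCBX8-1, and 6.43 and 10.3% in control. The shCBX8-1 libraries thus stood apart from the other 4, while the gene's total in shCBX8-1 was 95.0% of control. ACLY had 2 transcripts with over 5% of its counts. The first carried 46.2 and 47.0% in shCBX8-2, 47.3 and 45.9% in shCBX8-1, and 67.7 and 44.8% in control, and the second 47.7 and 47.1%, 49.2 and 47.0%, and 29.8 and 46.9% in the same groups, so control replicate 1 stood apart from the other 5 libraries. SCD, FASN, SQLE, MVD and EBP had 1 transcript each. ELOVL6 stood apart in shCBX8-2. Its leading transcript in control carried 42.2 and 48.6% in shCBX8-2, 76.3 and 65.7% in shCBX8-1, and 75.1 and 82.8% in control. Other genes had shares that swung between replicates. A transcript of FDFT1 carried 56.5 and 91.6% and one of INSIG1 20.7 and 80.1% in shCBX8-2, and one of SREBF2 60.5 and 85.9% in shCBX8-1. These shares are estimates for transcripts that share exons and were not tested. For ACACA a repeated listing of a transcript held many counts in the replicate 1 libraries and almost none in the replicate 2 libraries. Other ACACA transcripts held more in the latter, so the transcript shares of ACACA are not given. Annotated spans also overlap for ACAT2 with TCP1 and SOD2, MVK with MMAB, IDI1 with WDR37, FDPS with RUSC1-AS1, SREBF1 with RAI1 and SREBF2 with SREBF2-AS1, and reads there are uncertain for the same reason as in FADS2.

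The spread in shCBX8-2 followed base composition. Across the 30 genes with a GC value, the log2 difference of shCBX8-2 replicate 1 minus replicate 2 had a Spearman correlation of 0.777 with the GC content of the transcripts, and across 16054 genes tested it was 0.538, as a description over genes that share these 2 libraries. The 8 genes with a GC content under 45%, HMGCS1, IDI1, CYP51A1, MSMO1, SC5D, INSIG2, STARD4 and ELOVL6, all had replicate 1 below replicate 2. Of the 22 genes at 45% or more, 2 did. Of the genes that fell in shCBX8-2, 3 had a GC content under 45% (IDI1, MSMO1 and SC5D) and 8 had more. With library offsets adjusted for GC content, an alternative chosen after seeing the data, all 11 genes stayed past the threshold in shCBX8-2, and the counts there were 15 lower and 2 higher, against 10.3% and 11.7% of all genes tested. In shCBX8-1 the same adjustment gave 4 higher and 1 lower, against 4.86% and 3.42%, and between shCBX8-2 and shCBX8-1 it gave 14 lower and 1 higher, against 9.27% and 8.71%. What part base composition has in the unadjusted values was not tested further.

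**Figure D4:**
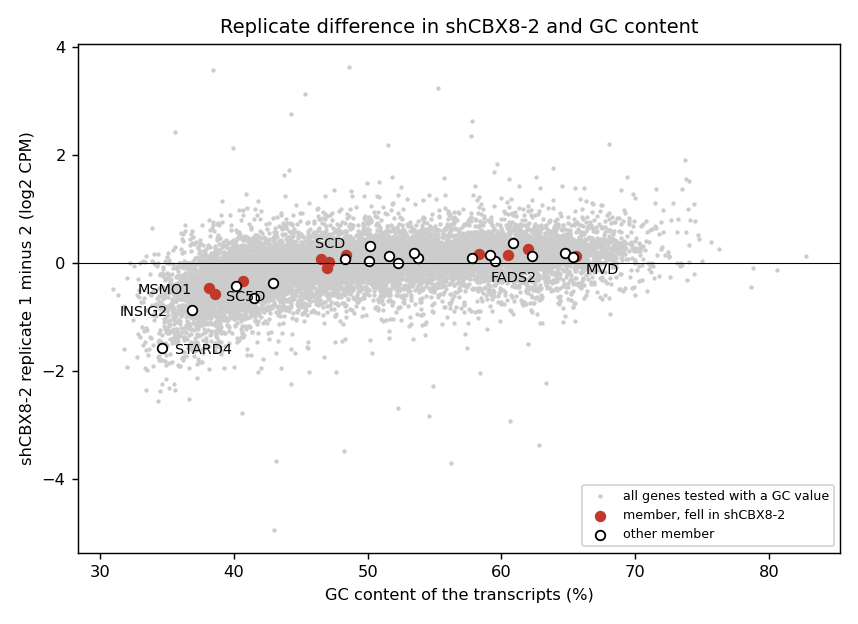
GC content of the transcripts (horizontal axis, percent) and the log2 CPM difference of shCBX8-2 replicate 1 minus replicate 2 (vertical axis). Red points are genes of the set that fell in shCBX8-2, open points the other genes of the set, and small grey points all genes tested with a GC value. The 8 genes of the set under 45% GC lie below 0, and most of the others lie at or above it.

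Other genes of the same pathways were put in lists beside the set, also chosen with earlier results of these data known. Of 21 further sterol pathway genes tested, 0 rose in any comparison, and 1 (4.76%) fell for the mean and in shCBX8-1, 2 (9.52%) in shCBX8-2 and 2 between shCBX8-2 and shCBX8-1. The shares of all genes tested that were lower in these comparisons were 3.48%, 1.13%, 6.64% and 5.77%, and counts of 1 or 2 genes cannot be told from these. ABCG1, a sterol exporter and target of the liver X receptors, stood at 8.64 and 9.11 CPM in shCBX8-2, 7.61 and 9.79 CPM in shCBX8-1, and 15.6 and 16.8 CPM in control. Like SCD it was low in all 4 knockdown libraries, and it fell in shCBX8-2 (-0.87 ± 0.16, adjusted p = 0.018) and in shCBX8-1 (-0.89 ± 0.16, adjusted p = 0.0437), with an adjusted p of up to 0.343 in shCBX8-1 when single libraries were left out. MYLIP, a ubiquitin ligase for lipoprotein receptors, stood at 78.9% of control in shCBX8-2 and at 77.4% in shCBX8-1, and RNF139 at 122% and 119%. MYLIP and RNF139 did not pass. PGRMC1 fell in shCBX8-2 (71.5% of control, adjusted p = 0.0247), and PGRMC1 and LBR, the other sterol C14 reductase, were lower in shCBX8-2 than in shCBX8-1. LBR stood at 40.0 and 68.1 CPM in shCBX8-2, 119.5 and 116.5 CPM in shCBX8-1, and 63.7 and 60.8 CPM in control. Against control, LBR did not pass in shCBX8-2 (86.9%, adjusted p = 0.588) or in shCBX8-1 (189.6%, adjusted p = 0.0884). PGRMC1 and LBR were named after their values were seen.

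Among 26 further genes of fatty acid synthesis and esterification, 7 fell in shCBX8-2 (ACSL3, ME1, SCD5, ACSS2, HACD3, MID1IP1 and MLXIPL). In shCBX8-1 0 passed, where 1.13% of all genes tested fell and 1.34% rose. For the mean of the groups 3 fell (ACSL3, ME1 and SCD5), 4 were lower in shCBX8-2 than in shCBX8-1, and 0 rose in any. HACD3, MID1IP1 and MLXIPL were named after their values were seen. The 7 genes are 26.9% of the list, beside 6.64% of all genes tested that fell in shCBX8-2, the 3 are 11.5% beside 3.48%, and the 4 are 15.4% beside 5.77%. The median log2 fold change of these 26 genes was -0.44 in shCBX8-2 and -0.05 in shCBX8-1, beside -0.04 and -0.01 over all genes tested. ME1, the malic enzyme that supplies NADPH, stood at 70.0 and 82.6 CPM in shCBX8-2, 115 and 118 CPM in shCBX8-1, and 131 and 133 CPM in control, with shCBX8-2 lowest (-0.79 ± 0.10, adjusted p = 0.00494). SCD5, the second stearoyl-CoA desaturase, stood at 17.6 and 15.1 CPM in shCBX8-2, 15.2 and 17.4 CPM in shCBX8-1, and 23.4 and 26.3 CPM in control. Its knockdown libraries all lay below control, as those of SCD did, and the fall for the mean (-0.61 ± 0.12, adjusted p = 0.0329) had an adjusted p of up to 0.292 in the alternatives. ACSL3, an acyl-CoA synthetase, was at 64.9% of control in shCBX8-2 (-0.62 ± 0.09, adjusted p = 0.00907) and at 76.0% in shCBX8-1, and ACSS2, which makes acetyl-CoA from acetate, at 72.3% (-0.47 ± 0.11, adjusted p = 0.0345) and 79.6%.

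Fatty acid oxidation genes were called about as often as all genes. Of 18 tested, 1 rose and 1 fell in shCBX8-2 (5.56% each, beside 6.03% and 6.64% of all genes tested). In shCBX8-1 and for the mean 0 passed, and 1 was higher and 1 lower in shCBX8-2 than in shCBX8-1. Their median log2 fold change in shCBX8-2 was -0.04, the same as over all genes. ECI1, an enoyl-CoA isomerase of mitochondria, stood at 76.2 and 53.4 CPM in shCBX8-2, 44.3 and 45.8 CPM in shCBX8-1, and 36.4 and 36.3 CPM in control, and it rose in shCBX8-2 (0.84 ± 0.16, adjusted p = 0.0213). PPARA, a transcription factor of fatty acid oxidation, fell in shCBX8-2 to 59.6% of control (adjusted p = 0.0276). ACADS and ACADVL, acyl-CoA dehydrogenases of the pathway, stood at 78.7% and 119% of control in shCBX8-2 and at 79.3% and 113% in shCBX8-1 and did not pass. DECR1 was the gene higher in shCBX8-2 than in shCBX8-1 and PPARA the gene lower, and both names were chosen after their values were seen.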

How the data were processed

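Per the labels, total RNA of stable A549 lines was taken with Trizol and sequenced with standard Illumina libraries. The deposited table holds expected counts (estimated reads per RefSeq transcript), whole numbers that the authors did not scale. The submitters' processing notes name HISAT2 2.2.1, StringTie 2.2.1, DESeq2 1.34.0 and hg38 without their roles. No source used here gives the annotation or the counting step. Of 84787 transcripts, 99.45% were matched to genes (83963 through RefSeq's GRCh38.p14 annotation, 357 through GENCODE), and each of the 467 without a match stayed a separate entry. Counts were summed per gene.

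Genes were tested with edgeR 4.0.16 in R 4.3.3: filterByExpr (minimum count 10, total 15), TMM, and a quasi-likelihood fit of 3 groups to 6 libraries (3 residual degrees of freedom), two-sided, adjusted by Benjamini and Hochberg over 17115 genes at 0.05. Dispersion was 0.0369 in common over genes. Standard errors came from the F statistic. The fit was tested on 5 sets of simulated data: median fold changes were close to those simulated and no called gene had the wrong sign, but some changed genes were missed at every simulated size, and in every set unchanged genes made up a larger share of the calls than the nominal false discovery rate of 0.05.

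Alternatives were DESeq2 size factors, the DESeq2 1.42.0 Wald test, a 2-fold minimum, no filter, leaving out each library, the replicate number as a block, only the libraries compared, the knockdown libraries as 1 group and no repeated accessions, and, added after seeing the data, GC-adjusted offsets (20 bins of GC content) without and with the block. The genes of the set and the lists were chosen with earlier results of these data known. Genes named by value outside the set are CBX8, CDKN2C, SCEL and, per pathway list, up to 4 with the smallest p for the mean of the groups, of which some are not reported here. Others are said to be chosen after their values were seen. GC content and lengths came from GENCODE transcripts where these covered 80% of a gene's counts, which INSIG1 did not reach (12.9%). Replicate differences of log2 CPM used a pseudocount of 0.5.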

Additional observations from a re-analysis of the deposited data

Results flagged for a closer look

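For 9 genes of the set the effects of the knockdown groups differed, by the edgeR test of shCBX8-2 minus shCBX8-1 itself (adjusted p under 0.05). On the log2 scale the difference was -0.94 for HMGCS1, -0.89 for MSMO1, -0.88 for ACLY, -0.77 for IDI1, -0.73 for SQLE, -0.62 for FADS2, -0.60 for MVD, -0.50 for DHCR7 and -0.49 for FDFT1. In all 9 the shCBX8-2 mean was below the shCBX8-1 mean. They were picked by this difference in the same libraries, so libraries that lie apart are no further evidence for it. CBX8 itself was at 61.9% of control in shCBX8-2 and at 30.5% in shCBX8-1. Groups of 2 libraries are too small for a search for single outlying samples.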

How the results depend on the processing

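Fold changes kept their direction better than their calls. Of 350 values of the 25 called contrasts of single genes, under 14 alternatives each, 0 changed sign and 90 no longer passed. These leave out the 2-fold minimum, which 0 of the 25 met. Of the uncalled, 109 values now passed, and 57 changed sign, ending between -0.25 and 0.22. Each group had 2 libraries of 64197784 to 67169537 counts, and whether their number, their depth or base composition limits precision most was not compared.

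Single libraries left out moved the genes of the set called from 0 to 11 for the mean of the knockdown groups, 0 to 7 in shCBX8-1, 1 to 20 in shCBX8-2 and 1 to 17 between shCBX8-2 and shCBX8-1. For all genes the ranges were 1 to 4467, 0 to 2327, 139 to 5515 and 126 to 5104, against 1162, 423, 2169 and 1681 as reported. In shCBX8-1, where 0 genes passed without control replicate 2, 1698 had an unadjusted p under 0.05. The lone library is then assumed to vary like the other groups. In the following, values run in the order mean, shCBX8-1, shCBX8-2 and shCBX8-2 minus shCBX8-1. A 2-fold minimum left 0 genes of the set in each and 261, 155, 623 and 573 genes in all. The DESeq2 Wald test called 6, 4, 16 and 13 of the set and 2441, 1482, 3560 and 2958 in all. A fit of only the libraries compared called 8, 5 and 6 of the set and 2426, 995 and 638 in all for the last 3 of these, since the mean takes in all libraries. The 4 knockdown libraries as 1 group gave 1 of the set and 27 in all for the mean. GC-adjusted offsets, chosen after seeing the data, called 7, 5, 17 and 15 of the set and 2609, 1416, 3767 and 3076 in all, and with the replicate block as well 6, 3, 16 and 14 and 2224, 1016, 3321 and 2729. DESeq2 size factors, no filter and no repeated accessions kept each count within 1.5 times.

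Over all genes tested, the replicate numbers did not pair the libraries, as same-numbered libraries had correlations of -0.0099, -0.0171 and 0.0164 between groups. The transcript shares of ACACA did follow the replicate number. With the number as a block, 1, 2, 8 and 9 genes of the set passed and 696, 173, 1684 and 1082 in all. The calls lost were ACLY and TM7SF2 for the mean (adjusted p = 0.0779 and 0.051) and DHCR7, FDFT1 and MVD in shCBX8-2 (adjusted p = 0.0635, 0.0529 and 0.0695). The causes of these changes were not tested.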
